A study of Mus musculus with 20 samples.

Results

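The liver transcripts described here are 10 genes of the endoplasmic reticulum (ER) stress and integrated stress responses: Atf4, Ddit3, Trib3, Asns and Chac1 of the integrated stress response, and Hspa5, Xbp1, Herpud1, Dnajb9 and Sdf2l1 of the ER chaperone and degradation arm. They were chosen by symbol as unfolded protein response genes and ATF4 targets, and are 10 of the 34933 named genes of the deposited tables. All 10 passed the filter on low counts, which kept 12789 genes. RNA was sequenced from liver of wild-type (WT) mice with diet-induced obesity (DIO). The groups were 5 mice given rosuvastatin, 5 given GGOH (geranylgeraniol), 5 given both (Rosuvastatin+GGOH, here the combination) and 5 given vehicle. Every group, vehicle included, is thus obese, so lean liver is not compared, and doses, durations, age and sex are not given in the sources used here. The labels number the livers 1 to 5 within each group. Nothing beyond those numbers states that they came from separate animals, and the p-values measure the spread between these samples. In bulk tissue, fewer cells of a type and less RNA per cell cannot be told apart.

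When unfolded protein accumulates in the ER, the sensors IRE1, PERK and ATF6 raise the chaperones, folding enzymes and degradation factors of that compartment. PERK and the other kinases that phosphorylate eIF2α slow general translation and favour translation of the ATF4 mRNA, and ATF4 then raises amino acid enzymes, transfer RNA synthetases and the transcription factor CHOP, which Ddit3 encodes. Hepatocytes secrete much protein and carry an extensive ER. Rosuvastatin inhibits HMG-CoA reductase, the enzyme that makes mevalonate, and GGOH can be converted to the geranylgeranyl group that mevalonate also supplies.

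Promoter stretches of 4 members are shown because they hold short elements known from other work to serve the ATF6 and ATF4 pathways. Capitals mark the matched element, which in TTGCATCA lies on the opposite strand. Sequences are from RefSeq on GRCm38.p6, given 5′ to 3′ on the strand of the gene, and the search covered 250 bases before to 50 bases after the RefSeq start on both strands for all 10 members. Hspa5 and Asns are given as 30 bases around the element.
Hspa5, chr2:34772020-34772049, plus strand: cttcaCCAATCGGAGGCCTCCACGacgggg
Herpud1, chr8:94386289-94386428, plus strand: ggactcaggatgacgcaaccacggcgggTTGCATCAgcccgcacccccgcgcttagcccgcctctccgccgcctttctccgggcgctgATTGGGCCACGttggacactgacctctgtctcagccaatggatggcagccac
Asns, chr6:7693213-7693242, minus strand: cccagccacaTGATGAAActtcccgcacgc
Chac1, chr2:119351022-119351141, plus strand: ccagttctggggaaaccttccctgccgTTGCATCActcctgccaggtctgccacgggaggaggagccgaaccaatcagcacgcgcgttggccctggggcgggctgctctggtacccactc

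The ER stress element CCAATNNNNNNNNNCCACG, at which ATF6 and NF-Y are known to bind, occurred in 1 member, Hspa5, starting 65 bases before the start. It occurred in 39 of 32851 RefSeq promoters (0.119%). The second form of that element (ERSE-II, which is ATTGG, any base, then CCACG) occurred in Herpud1 at 52 bases before the start, and in 12 of the 32851 promoters (0.0365%). The ATF4 element TGATGNAA occurred in 4 members, Trib3, Asns, Chac1 and Herpud1, and in 1304 promoters (3.97%). Herpud1 was the only member to hold an element of each kind. A match describes letters in this window and no more.

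Libraries held 8548120 to 18373913 estimated counts. Values per liver are given in CPM, counts scaled to the TMM-normalised size of each library. The mitochondrial share of the counts was 27.9% in combination mouse 2 and 29.2% in combination mouse 3, and 8.06 to 17.1% in the other 18 libraries. Summed hepatocyte markers (6 of 6 detected, Alb among them) were lowest in the same livers, at 44300 and 41500 CPM, against 57600 to 90000 CPM elsewhere. Vehicle mouse 1, left out together with these livers in an alternative setting, had the highest TMM factor, 1.25. Rosuvastatin mouse 5 was near it at 1.22. The mitochondrial share of vehicle mouse 1 was 12.85%, inside the range of those 18 libraries. Vehicle mouse 1 was high for many ER genes, and combination mice 2 and 3 were low. That setting therefore raises the combination relative to vehicle in such genes by construction, and is no independent check. A left-out liver outside the groups compared acts only through shared filtering, scaling and spread. Adipocyte markers summed to at most 0.297 CPM in any liver. Levels of different genes are compared only in TPM, which are scaled by transcript length. Ranked by median TPM over 20 livers, Hspa5 stood highest at 127 TPM, followed by Herpud1 at 99.4, Xbp1 at 51.4, Atf4 at 50.9 and Dnajb9 at 37.0 TPM. Ddit3 at 8.64, Sdf2l1 at 7.41 and Trib3 at 3.35 TPM came next, and Chac1 at 0.593 and Asns at 0.236 TPM were lowest. Over the 20 livers Xbp1 ranged from 26.3 to 113 TPM and Atf4 from 32.6 to 63.6 TPM, so the ranges of these neighbours overlapped. The same held for Ddit3 (4.17 to 23.1 TPM) and Sdf2l1 (2.91 to 49.0 TPM). Neighbours were not compared within each liver, so their order is not settled.

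**Figure D1:**
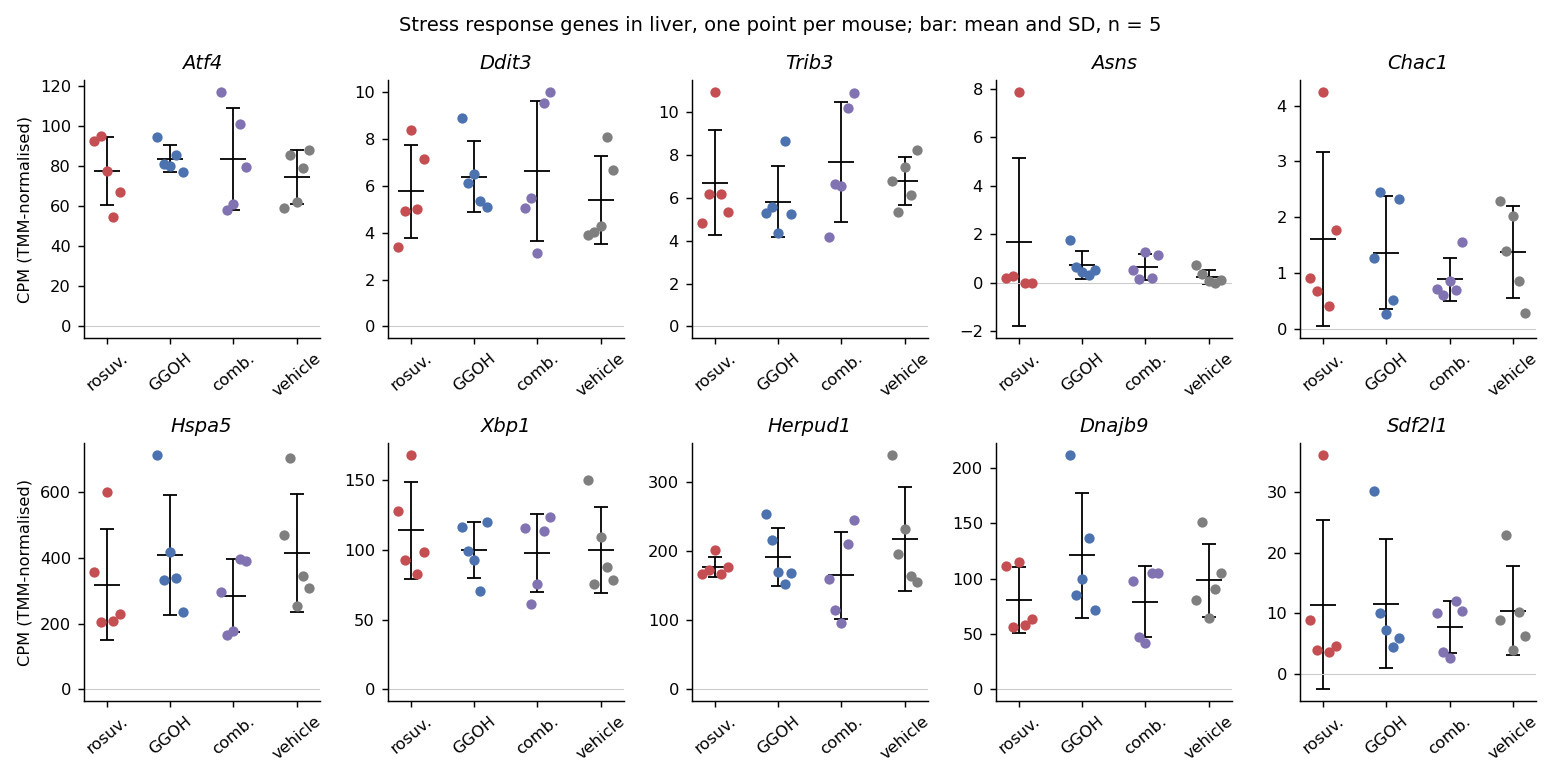
TMM-normalised CPM (vertical axis) of the 10 genes in each liver, with mice 1 to 5 from left to right within the rosuvastatin, GGOH, combination and vehicle groups; the bar is the mean and SD of 5 mice. The groups overlap for every gene, and rosuvastatin mouse 3 stands at 7.88 CPM of Asns, apart from all other livers.

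Atf4 (GRCm38 chr15:80255184-80257541, plus strand; protein-coding gene positions are all from GENCODE M21) encodes the transcription factor at the head of the integrated stress response, and its mRNA level says little about its translation. Its CPM were 92.8, 95.1, 77.6, 54.8 and 67.2 with rosuvastatin, 94.4, 81.1, 80.1, 85.6 and 76.9 with GGOH, 117, 58.4, 61.0, 101 and 79.8 with the combination, and 58.9, 85.4, 62.1, 78.9 and 88.3 with vehicle. The groups overlapped, and the 2 highest and 2 of the 4 lowest livers were all combination mice. The log2 fold change was 0.05 ± 0.19 (SE) for rosuvastatin against vehicle, with a 95% interval of -0.35 to 0.46, and 0.16 ± 0.19 for GGOH against vehicle.

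Ddit3 (chr10:127290774-127296288, plus strand) encodes CHOP. Its CPM were 3.37, 4.90, 8.39, 4.99 and 7.14 with rosuvastatin, 8.89, 6.10, 6.51, 5.36 and 5.11 with GGOH, 5.05, 5.47, 3.11, 9.51 and 10.01 with the combination, and 3.91, 4.02, 4.30, 8.08 and 6.68 with vehicle. Combination mice held both the highest and the lowest value of the 20. With rosuvastatin the log2 fold change was 0.11 ± 0.31, and it was 0.25 ± 0.31 with GGOH, each against vehicle. Ddit3 is an uncertain case on the length-scaled table: GENCODE M21 places 2 overlapping gene models of that name there, the longer of which also overlaps the methionyl-tRNA synthetase gene Mars1 on the opposite strand. The counting strand is not given in the sources used here. In vehicle mouse 1 its TPM was 22.6. The ratio of TPM to CPM was divided by each library's median ratio over the 10 members. On that scale Ddit3 in vehicle mouse 1 was at 2.85 times its median over livers. Asns went further, at 5.49 times in rosuvastatin mouse 1, where it had 3 counts.

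Trib3 (chr2:152337422-152344032, minus strand) encodes a pseudokinase that CHOP and ATF4 raise and that binds AKT. Its CPM were 4.84, 6.19, 10.9, 6.16 and 5.31 with rosuvastatin, 5.27, 5.58, 4.36, 8.63 and 5.23 with GGOH, 4.16, 6.62, 6.54, 10.2 and 10.9 with the combination, and 6.77, 5.33, 7.42, 6.11 and 8.21 with vehicle. Rosuvastatin mouse 3 and combination mice 5 and 4 had the 3 highest levels. Its widest pairwise difference was a log2 fold change of 0.40 ± 0.26 for the combination against GGOH (95% interval -0.14 to 0.94).

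Asns (chr6:7675169-7693254, minus strand) encodes asparagine synthetase, a classic ATF4 target. Its CPM were 0.211, 0.272, 7.88, 0 and 0 with rosuvastatin, 1.76, 0.666, 0.443, 0.338 and 0.535 with GGOH, 0.512, 0.164, 1.29, 0.188 and 1.16 with the combination, and 0.715, 0.374, 0.0651, 0 and 0.0955 with vehicle. A count of 0 allows up to 0.174 and 0.166 CPM in rosuvastatin mice 4 and 5, and up to 0.282 CPM in vehicle mouse 4 (3 counts per library; these limits cover counting error only). One liver, rosuvastatin mouse 3, stood at 22.1 times the median of all 20. For rosuvastatin against vehicle the log2 fold change was 2.56 ± 1.16 (95% interval 0.14 to 4.98, edgeR unadjusted p = 0.039 and adjusted p = 0.973). Without that mouse it was -1.23, so the sign of the group difference rested on 1 liver. Of 70 two-sided permutation tests of single members, 0 had a p under 0.05, and the smallest was an exact p of 0.0794 for Asns in GGOH against vehicle, with a difference in mean log2 CPM of 1.36. All 5 GGOH livers had counts of Asns, as had 4 of 5 vehicle livers, and the groups overlapped.

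Chac1 (chr2:119351229-119354381, plus strand) encodes a glutathione-degrading enzyme downstream of ATF4. Its CPM were 0.912, 0.681, 4.25, 0.407 and 1.77 with rosuvastatin, 1.27, 2.46, 0.253, 0.508 and 2.32 with GGOH, 0.703, 0.602, 0.858, 0.689 and 1.56 with the combination, and 2.29, 1.40, 2.02, 0.846 and 0.286 with vehicle. The range within the vehicle group covered every liver of the combination group. On the log2 scale the difference was -0.86 ± 0.63 for the combination against rosuvastatin and -0.66 ± 0.63 for the combination against vehicle, neither past the threshold.

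Hspa5 (chr2:34771970-34777547, plus strand) encodes BiP, the main ER chaperone of the HSP70 family and the usual readout of ER load. Its CPM were 356, 205, 599.8, 207 and 229 with rosuvastatin, 715, 334, 418, 338 and 236 with GGOH, 296, 166, 179, 396 and 391 with the combination, and 469, 704, 253, 345 and 308 with vehicle. Every group held livers on both sides of the 20-liver median of 336 CPM. The log2 fold change was -0.38 ± 0.36 for rosuvastatin against vehicle and -0.54 ± 0.36 for the combination against vehicle (95% interval -1.29 to 0.21, edgeR adjusted p = 0.817). The combination mean was 285 ± 111 CPM (SD, n = 5), in which mice 2 and 3 were the lowest of all 20 livers.

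Sdf2l1 (chr16:17130138-17132383, minus strand) encodes a cofactor that joins BiP and its J-domain partners. Its CPM were 8.91, 3.88, 36.2, 3.66 and 4.54 with rosuvastatin, 30.3, 10.1, 7.21, 4.399 and 5.88 with GGOH, 10.1, 3.66, 2.58, 11.96 and 10.5 with the combination, and 8.92, 23.0, 3.91, 10.2 and 6.30 with vehicle. One liver each of the rosuvastatin, GGOH and vehicle groups stood above 20 CPM, and no combination liver did. The widest pairwise difference, a log2 fold change of -0.55 ± 0.65 for the combination against rosuvastatin, was smaller than its SE.

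Dnajb9 (chr12:44205559-44210326, minus strand) encodes ERdj4, a J-domain partner that restrains IRE1 through BiP. Its CPM were 112, 56.2, 115, 58.6 and 63.1 with rosuvastatin, 212, 85.5, 99.6, 137 and 71.3 with GGOH, 97.9, 47.1, 42.0, 105 and 105 with the combination, and 80.8, 151, 64.7, 90.9 and 105 with vehicle. By adjusted p it came nearest to the threshold of all members, in the 2 comparisons that follow. In these, 14% and 14.4% of all genes had an unadjusted edgeR p under 0.05. Dnajb9 had 0.0788 and 0.0689, above the 0.039 of Asns in rosuvastatin against vehicle. For the combination against GGOH the log2 fold change was -0.61 ± 0.33 (95% interval -1.29 to 0.08, edgeR adjusted p = 0.382, exact permutation p = 0.19). It shrank to -0.239 once combination livers 2 and 3 and vehicle liver 1 were dropped. Averaged over GGOH, the difference between the 10 livers with rosuvastatin and the 10 without it was -0.45 ± 0.23 (adjusted p = 0.357).

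Xbp1 (chr11:5520659-5525893, plus strand) encodes the transcription factor whose mRNA IRE1 splices, and gene-level values do not show the splicing. Its CPM were 128, 92.6, 169, 83.0 and 98.5 with rosuvastatin, 117, 99.7, 93.1, 70.8 and 120.4 with GGOH, 116, 61.0, 75.7, 114 and 124 with the combination, and 150.0, 75.5, 109, 88.1 and 78.4 with vehicle. The group means lay close together, from 98.0 CPM with the combination to 114 CPM with rosuvastatin. Fitted log2 fold changes were 0.19 ± 0.24 for rosuvastatin and 0.00 ± 0.24 for GGOH, each against vehicle.

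Herpud1 (chr8:94386438-94395377, plus strand) encodes an ER membrane protein of the degradation machinery. Its CPM were 166, 173, 201, 167 and 176 with rosuvastatin, 254, 216, 169, 153 and 167 with GGOH, 159, 114, 96.0, 210 and 245 with the combination, and 339, 196, 232, 163 and 155 with vehicle. The rosuvastatin livers were the most alike, with an SD of 14.4 CPM, against 41.8 CPM with GGOH, 62.9 CPM with the combination and 74.7 CPM with vehicle; these SDs were not compared by a test. For the combination against vehicle the log2 fold change was -0.40 ± 0.24. Without vehicle mouse 1 and combination mice 2 and 3 it was 0.15, so its sign rested on those 3 livers together.

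Over all genes, 0 of 10 members passed the edgeR threshold in any of the 8 comparisons, and 1 (Asns, rosuvastatin against vehicle) had an unadjusted p under 0.05. Calls were rare among all genes tested as well. The share of the 12789 genes past the adjusted threshold was 0% in 7 comparisons and 0.00782% (1 gene, no member) for GGOH averaged over rosuvastatin. The share with an unadjusted p under 0.05 was 3.69% for rosuvastatin against vehicle and 2.86% for GGOH against vehicle. It was 1.69% for the combination against rosuvastatin, 5.5% for the combination against vehicle and 14% for the combination against GGOH. For the interaction it was 2.89%, for rosuvastatin averaged over GGOH 14.4% and for GGOH averaged over rosuvastatin 1.7%. In no pair of groups did a member's CPM fail to overlap, whereas 0.516% of all genes did not overlap between rosuvastatin and vehicle and 0.43% between GGOH and vehicle. The shares were 0.266% between the combination and rosuvastatin, 0.758% between the combination and vehicle and 2.26% between the combination and GGOH.

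**Figure D2:**
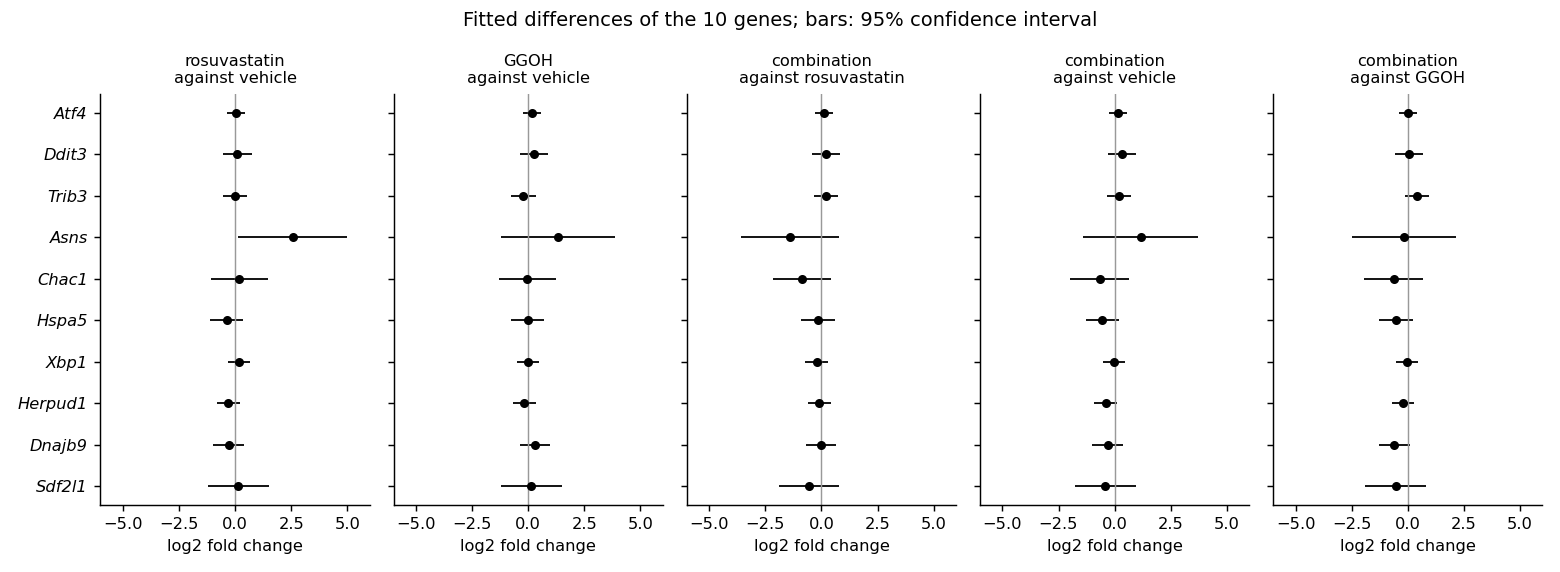
Fitted log2 fold change of each gene (horizontal axis) in 5 pairwise comparisons of treatment groups, each with its 95% confidence interval as a bar. The interval includes 0 in every case but Asns in rosuvastatin against vehicle, which reaches from 0.14 to 4.98.

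The chaperone arm was lower in the combination group, without any call, and that sign depended on a few livers. For rosuvastatin against vehicle, 6 members were higher and 4 lower, with a median log2 fold change of 0.08 against a median of -0.02 over all genes. Without rosuvastatin mouse 3, 2 were higher and 8 lower (median -0.38). For GGOH against vehicle, 5 were higher and 5 lower, and 9 were higher and 1 lower with combination mice 2 and 3 and vehicle mouse 1 left out. Of those left out, only vehicle mouse 1 is in that comparison. All 5 chaperone arm members were lower with the combination than with rosuvastatin (median -0.16), vehicle (-0.40) and GGOH (-0.52). These 3 comparisons share the combination livers. Without vehicle mouse 1 and combination mice 2 and 3, 1 of the 5 was lower than with rosuvastatin (median 0.18), 1 of 5 than with vehicle (0.02) and 3 of 5 than with GGOH (-0.07). Without rosuvastatin mouse 3, 2 of the 5 were lower than with rosuvastatin (median 0.13). The 5 integrated stress response members had medians of 0.11, 0.19 and 0.00 in the same comparisons, and Chac1 was lower in each. The median over all genes was 0.01 in all 3. Combination mice 2 and 3, with the high mitochondrial share and the low hepatocyte markers, held the 2 lowest values of Hspa5, Herpud1 and Dnajb9. The part of those features in the group difference was not tested.

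For the interaction, which asks whether the statin difference is altered by GGOH, 8 members had a negative and 2 a positive log2 value (median -0.18, against 0.02 over all genes). With rosuvastatin mouse 3 left out, 4 were negative and 6 positive (median 0.11), and the counts were the same with combination mice 2 and 3 and vehicle mouse 1 left out (median 0.12). Asns had the widest value, -2.71 ± 1.61, and without rosuvastatin mouse 3 it was 1.07. Trib3 was at 0.42 ± 0.37. Averaged over GGOH, rosuvastatin gave 5 members higher and 5 lower, with Hspa5 at -0.45 ± 0.26. Averaged over rosuvastatin, GGOH gave 3 higher and 7 lower, with Ddit3 at 0.23 ± 0.21 and Chac1 at -0.45 ± 0.44. These tallies turned as well. With rosuvastatin mouse 3 left out, the rosuvastatin average had 3 higher and 7 lower and the GGOH average 7 higher and 3 lower. Leaving out combination mice 2 and 3 and vehicle mouse 1, the rosuvastatin average had 8 higher and 2 lower and the GGOH average 9 higher and 1 lower.

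Variation between mice of 1 group was wide for several members. The within-group SD of log2 CPM was 1.5 for Asns, 1.10 for Sdf2l1 and 1.02 for Chac1, against a median of 0.35 over 10499 genes with a mean log2 CPM of at least 1. Asns and Chac1, at means of -0.98 and 0.22, lie below that level and are not among those genes. Hspa5 had an SD of 0.61 and Dnajb9 of 0.57. Atf4 had the narrowest, at 0.31. Of each member's variance, 3.32 to 18.7% lay between the 4 groups, where the median over the 10499 genes was 15.8% with quartiles of 8.85 and 24%. Dnajb9 had the highest share and Sdf2l1 the lowest, and every member lay below the upper quartile. With no group effect at all, livers split into these 4 equal groups give a share that is also 15.8% on average. The shares therefore do not by themselves show an effect of treatment.

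**Figure D3:**
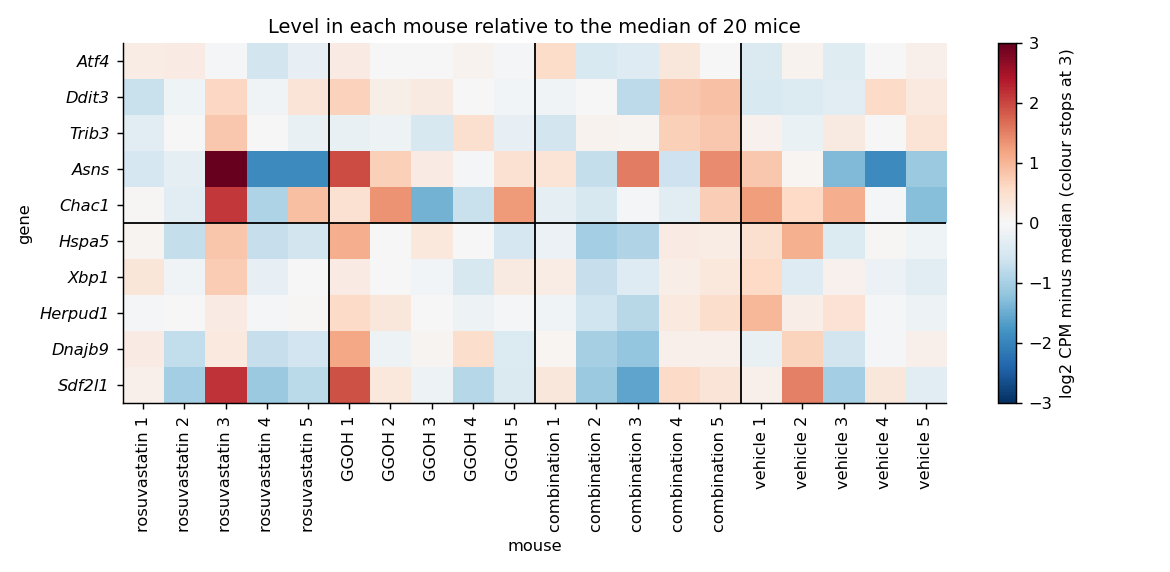
Log2 CPM of each gene in each liver minus that gene's median over 20 livers (colour scale, which stops at 3), with mice in columns by group and genes in rows. Rosuvastatin mouse 3 and GGOH mouse 1 each have 6 of the 10 genes among the 3 highest of 20 livers, while combination mouse 2 has 6 and combination mouse 3 has 5 among the 3 lowest.

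The variation was shared within the chaperone arm. Over the 20 livers Hspa5 followed Sdf2l1 with a Pearson r of 0.910 and a Spearman rho of 0.865 (permutation p = 1e-05 for each, the smallest that 100000 permutations can give, and 0.000225 for r and 0.00045 for rho after Benjamini-Hochberg adjustment over 45 pairs). After group means were subtracted r was 0.929, and without GGOH mouse 1 and vehicle mouse 2, the 2 livers farthest from the median of Hspa5, it was 0.863. Hspa5 and Dnajb9 had r = 0.890 and rho = 0.841 (adjusted permutation p = 0.000225 and 0.0009), and r = 0.835 without the same 2 livers. Dnajb9 and Sdf2l1 had r = 0.799 and rho = 0.762 (adjusted permutation p = 0.0003 and 0.0027), and r = 0.694 without GGOH mouse 1 and combination mouse 3. The 3 highest livers for Hspa5 were also the 3 highest for Sdf2l1, and they came from different groups: rosuvastatin mouse 3, GGOH mouse 1 and vehicle mouse 2.

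Xbp1 and Herpud1 moved together more loosely, with r = 0.679 and rho = 0.632 (adjusted permutation p = 0.00967 and 0.0345) and r = 0.664 without the 2 farthest livers. Hspa5 and Herpud1 had r = 0.637 and rho = 0.579 (adjusted permutation p = 0.0181 and 0.0489), which after subtraction of group means was r = 0.584 (adjusted permutation p = 0.0567). In all, 5 of the 10 pairs within the chaperone arm passed, with a median r of 0.589. Within the integrated stress response arm 0 of 10 pairs passed, with a median r of 0.174. Between the arms 3 of 25 passed, with a median of 0.329.

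Atf4 and its targets did not follow each other closely. Atf4 had r = -0.12 with Trib3, 0.17 with Asns, -0.16 with Chac1 and 0.30 with Ddit3. The highest r within this arm, 0.49, was between Asns and Chac1. The pairs across the arms that passed by r were Chac1 with Xbp1 (r = 0.640, rho = 0.626, adjusted permutation p = 0.0181 and 0.0345), Atf4 with Dnajb9 (r = 0.626, rho = 0.595, 0.0191 and 0.0406) and Asns with Sdf2l1 (r = 0.567, rho = 0.420, 0.0487 and 0.175). Without the 2 farthest livers these had r = 0.572, 0.655 and 0.178, so the relation of Asns and Sdf2l1 rested on rosuvastatin mouse 3 and GGOH mouse 1. Chac1 with Herpud1 passed by rho only (r = 0.512, rho = 0.598, adjusted permutation p = 0.0828 and 0.0406), with r = 0.567 without the 2 farthest livers. The low counts of Asns and Chac1 limit any r they can show.

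The number of correlated pairs depended on the scale. On log2(TPM + 1), which has no TMM factor, 35 of 45 pairs passed. The library-wide ratio of TPM to TMM-normalised CPM, taken as the median over 129 stress and marker genes, ran from 0.698 (vehicle mouse 5) to 1.53 (vehicle mouse 1) times its typical value, so TPM values of 1 liver are raised or lowered together. The pairs among Hspa5, Sdf2l1 and Dnajb9 passed on both scales.

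**Figure D4:**
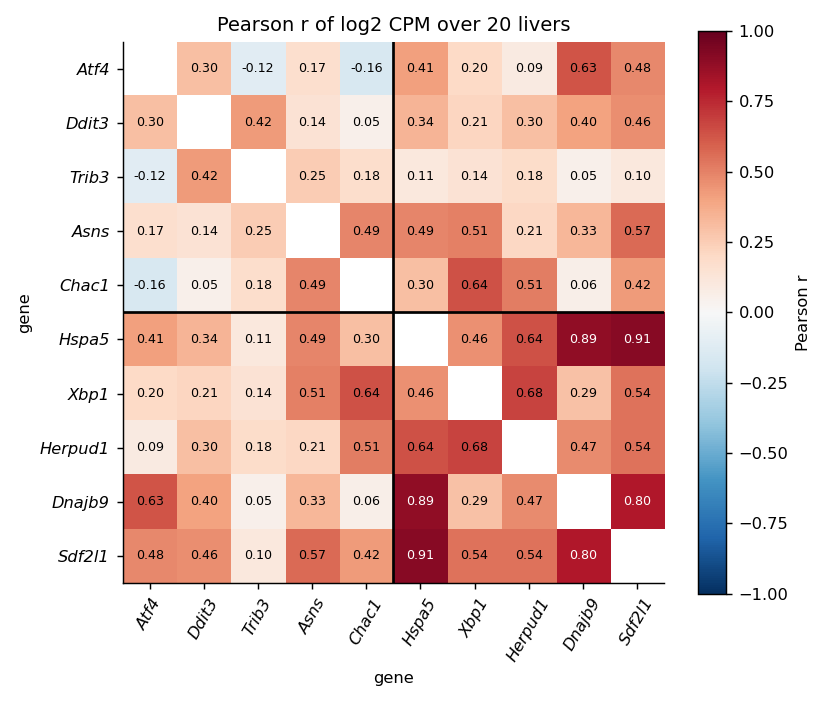
Pearson r of log2 CPM over 20 livers for each pair of the 10 genes, in rows and columns in the same order, with the integrated stress response genes above and left of the black lines. Hspa5, Dnajb9 and Sdf2l1 form the block with the highest values, 0.80 to 0.91.

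The genes nearest to Hspa5 over all 10499 searched, by Pearson r over 20 livers after subtraction of group means, were Pdia3 at 0.954, Manf at 0.936, Sdf2l1 at 0.929, Pdia6 at 0.921 and Tram1 at 0.920. Pdia3 and Pdia6 are disulfide isomerases of the ER, Manf is a secreted ER stress protein and Tram1 serves protein translocation. Of the 16 listed ER chaperones and folding enzymes, 14 had an r above 0.5 with Hspa5 (median 0.850), as had 9.45% of all genes. Among cytosolic heat shock genes 4 of 5 did (median 0.716), with Dnajb1 at 0.741. Among ERAD and translocation genes 5 of 16 did (median 0.479), and among aminoacyl-tRNA synthetases 6 of 12 (0.407). Of the sensors and kinases 2 of 14 did (median -0.0879), from Ppp1r15b at -0.598 to Dnajc3, a BiP partner that inhibits PERK, at 0.824. The ATF4 amino acid targets had 1 of 8 (median 0.0528, lowest Sesn2 at -0.604). The secreted and other targets had 2 of 8 (median 0.0696, lowest Vldlr at -0.607). These are descriptions over livers that share their library scaling.

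For Trib3 the nearest genes were Abtb1 at 0.762, Supt3 at 0.742, Hspb1 at 0.694, Ddx41 at 0.692 and Pacsin2 at 0.689. Without rosuvastatin mouse 3, Ddx41 was the only one of these 5 still among the nearest 5, whereas 4 of the 5 neighbours of Hspa5 were. Of the 12 synthetases, 3 had an r above 0.5 with Trib3, led by Mars1 at 0.631, as had 1.3% of all genes. None of the 16 ER chaperones did, and their highest was Sil1 at 0.341. The 3 synthetases, Mars1, Gars and Nars, were each highest in rosuvastatin mouse 3, as was Trib3. Their r without that liver is not given.

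Levels of 4 of the 5 chaperone arm members ran opposite to the mitochondrial share of the library. Over 20 livers Dnajb9 had r = -0.772 and rho = -0.747 with that share (permutation p = 3e-05 and 0.00023, and 0.0006 for r after adjustment over 20 relations), and r = -0.666 without the 2 livers with the highest share. Hspa5 had r = -0.731 and rho = -0.746 (permutation p = 0.00024 and 0.00028, adjusted p for r = 0.0024), and r = -0.668 without those livers. Sdf2l1 had r = -0.634 and rho = -0.559 (permutation p = 0.00321 and 0.0114, adjusted p for r = 0.016), and Herpud1 r = -0.710 and rho = -0.423 (0.0008 and 0.0645, adjusted p for r = 0.00533). Without combination mice 2 and 3, Herpud1 had r = -0.328, so its relation rested on those livers. Xbp1, the other member of the arm, did not pass (r = -0.514 and rho = -0.287, permutation p = 0.0197 and 0.219, adjusted p for r = 0.0657), and had r = -0.190 without those livers.

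Mitochondrial reads take part in the denominator of CPM. With CPM taken over non-mitochondrial reads, a denominator chosen after seeing the data, Hspa5 and Dnajb9 still passed, while Sdf2l1 (r = -0.550, adjusted permutation p = 0.0816) and Herpud1 (-0.362, 0.571) did not. No integrated stress response member passed, the nearest being Ddit3 with r = -0.519 and rho = -0.444 (permutation p = 0.017 and 0.0515, adjusted p for r = 0.0657). With the total count of the library 0 of 10 members passed, with r from -0.10 to 0.21.

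**Figure D5:**
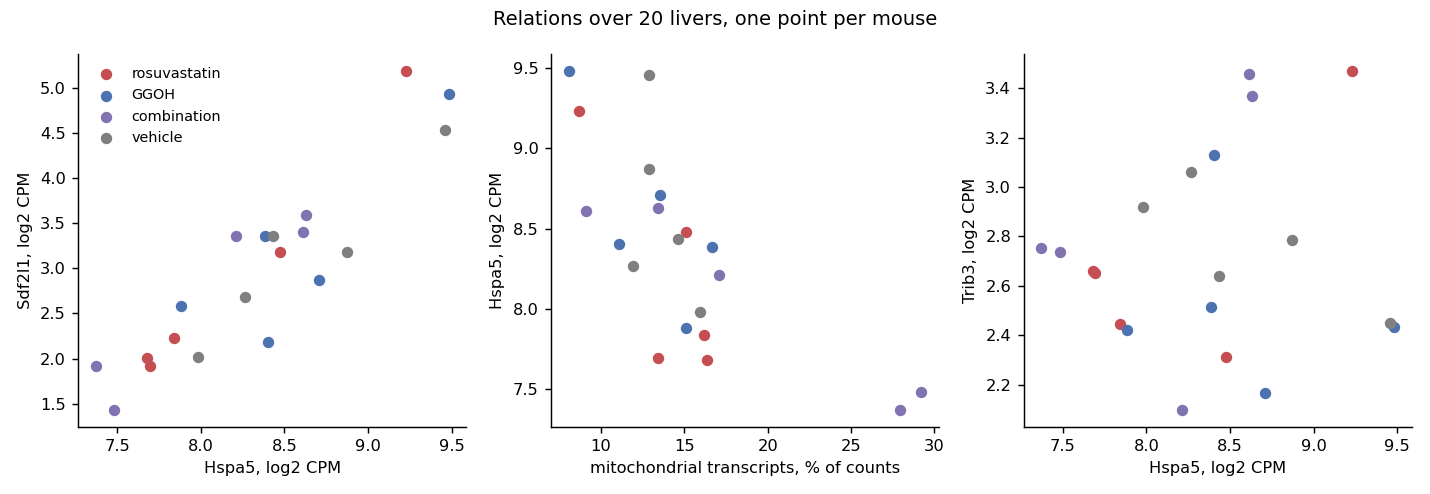
Relations over 20 livers, with 1 point per mouse coloured by group: Sdf2l1 against Hspa5 and Trib3 against Hspa5 (both axes in log2 CPM), and Hspa5 (log2 CPM) against the percentage of counts from mitochondrial transcripts. Sdf2l1 climbs with Hspa5 (r = 0.910) and Hspa5 declines with the mitochondrial share (r = -0.731), while Trib3 shows little relation to Hspa5 (r = 0.11).

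Rosuvastatin mouse 3 had the highest level of 5 members, Trib3, Asns, Chac1, Xbp1 and Sdf2l1, and its lead reached well beyond them. It was highest of 20 livers in 9 of the 16 ER chaperones and among the top 3 in 13, with a median of 1.91 times the 20-liver median. How often this liver ranked so high over all genes was not counted. Creld2 stood at 48.6 CPM against a median of 11.8, Pdia6 at 174 against 60.1, Hyou1 at 74.5 against 27.4 and Calr at 802 against 359.5 CPM. Of 13 ATF4 amino acid targets, 4 were also highest in this liver, with Mthfd2 at 3.52 against 1.01 CPM and Pck2 at 4.37 against 2.07 CPM, and Psat1 (3.12 against 0.939 CPM) was second highest. The median of that list was 1.25 times the 20-liver median. Slc7a1, Cth, Slc7a5 and Slc38a2 were below their medians, at 0.927, 0.712, 0.694 and 0.81 times. Combination mouse 2 was highest in 3 of the 13. Rosuvastatin mouse 3 was among the top 3 for 10 of 12 synthetases, with a median of 1.40 times the 20-liver median. It was highest for Atf5 (415 against 217 CPM) and Fgf21 (21.3 against 10.4 CPM). In the lists of those 2 genes, Nfil3, Bcl2l11 and Vldlr were below their medians, at 0.912, 0.831 and 0.465 times. The Atf4 mRNA of this liver, at 77.6 CPM, ranked 13 of 20.

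The mitochondrial share of that liver was 8.66%, the second lowest. Its summed hepatocyte markers ranked 9 of 20 at 65300 CPM and its Kupffer cell and macrophage markers 10 of 20 at 244 CPM. Its sinusoidal endothelial markers were the lowest of 20 at 93.7 CPM and its cholangiocyte markers the highest at 9.98 CPM. Plasma cells are rich in ER chaperones. The 6 B and plasma cell markers summed to 186 CPM, rank 3 of 20, of which Sdc1, also expressed by hepatocytes, made 178 CPM. Jchain was at 0.737 CPM in this liver, below its median of 1.84 CPM, while Mzb1 was at 0.680 CPM against a median of 0.387. Of the 6 cytosolic heat shock genes 0 were among the top 3, with a median of 1.35 times the 20-liver median. The part of any of these in the high values was not tested.

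GGOH mouse 1 showed another mixture. It was highest for Hspa5 and Dnajb9 and second for Asns, Herpud1 and Sdf2l1, yet ranked 16 of 20 for Trib3. It was among the top 3 in 7 of 16 ER chaperones and in 5 of 6 cytosolic heat shock genes, with medians of 1.45 and 1.67 times the 20-liver median, and its mitochondrial share of 8.06% was the lowest. Vehicle mouse 2, with Hspa5 at 704 CPM, was among the top 3 in 12 of 16 ER chaperones. Vehicle mouse 1 was among the top 3 for 9 of 16 ER chaperones and for 9 of 12 synthetases, each with a median of 1.46 times the 20-liver median. It was so too for 9 of 17 ERAD, translocation and transport genes (median 1.45), of which 8 were highest there, and for 8 of 14 sensors and kinases (1.49, against 1.27 in rosuvastatin mouse 3). Of the 10 members, 2 were among its top 3, Herpud1 and Xbp1. At the other end, combination mouse 2 was among the lowest 3 for 14 of 16 ER chaperones and combination mouse 3 for 12 of 16. Such ranks were not counted over all genes for any of these livers, so a shift of a whole library is not told apart here.

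Among the other genes of the pathway, 0 passed the edgeR threshold in any comparison. Of the 14 sensors and kinases, 7 were higher and 7 lower with rosuvastatin than with vehicle (median log2 fold change -0.01), and Ppp1r15b, a phosphatase subunit that restores eIF2α, had the smallest p at -0.21 ± 0.10. The counts were 5 higher and 9 lower without rosuvastatin mouse 3, and 11 higher and 3 lower with combination mice 2 and 3 and vehicle mouse 1 left out. Of the latter livers, only vehicle mouse 1 is in that comparison. Of 7 ATF4 partners and stress factors, 6 were higher (median 0.13), with Atf5 at 240.1 ± 106 CPM with rosuvastatin and 164 ± 48.4 CPM with vehicle (SD, n = 5), a log2 fold change of 0.55 ± 0.24. Rosuvastatin mouse 3 was highest for Atf5, and the count of this list without that liver is not given. All 7 were higher with GGOH than with vehicle (median 0.25), and 6 of 7 with combination mice 2 and 3 and vehicle mouse 1 left out. Here too only vehicle mouse 1 of those left out is compared. Nupr1, a stress-responsive chromatin protein, was at 0.55 ± 0.30 for GGOH averaged over rosuvastatin.

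Of the 16 ATF4 amino acid targets, 13 passed the low-count filter, and with rosuvastatin 8 of these were higher and 5 lower than with vehicle. Mthfd2, of the mitochondrial folate cycle, had the smallest p, at 1.28 ± 0.40 (1.53 ± 1.13 CPM with rosuvastatin and 0.635 ± 0.236 CPM with vehicle, SD, n = 5). Rosuvastatin mouse 3 held the 3.52 CPM given above, and the group medians were 1.11 CPM with rosuvastatin and 0.561 CPM with vehicle. Of 9 tested secreted and other targets, 7 were higher with rosuvastatin (median 0.29), with the translation repressor Eif4ebp1 at 0.52 ± 0.18 and the stress hormone Gdf15 at 0.69 ± 0.35. Rosuvastatin mouse 3 was highest for 2 of these 9 and among the top 3 for 4. For this list and the amino acid targets, counts without that liver are not given. Of the 12 synthetases 7 were higher and 5 lower with rosuvastatin than with vehicle (median 0.02), with Eprs at -0.27 ± 0.15. With rosuvastatin mouse 3 left out, 1 was higher and 11 lower (median -0.16).

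Of the 16 ER chaperones and folding enzymes, 4 were higher and 12 lower with rosuvastatin than with vehicle (median -0.11), and 5 were higher and 11 lower with GGOH than with vehicle (median -0.14). Leaving out combination mice 2 and 3 and vehicle mouse 1, 8 were higher and 8 lower with rosuvastatin, and 10 were higher and 6 lower with GGOH. Both comparisons hold only vehicle mouse 1 of those left out. With the combination all 16 were lower than with rosuvastatin (median -0.25) and than with vehicle (median -0.35), and 14 were lower than with GGOH (median -0.25). Over all genes, 52.6% were higher with the combination than with rosuvastatin, 50.8% than with vehicle and 50.9% than with GGOH. Against vehicle 2 of the 16 had an unadjusted p under 0.05, as had 5.5% of all genes, and 0 passed after adjustment. Without vehicle mouse 1 and combination mice 2 and 3, 12 of 16 were lower than with rosuvastatin (median -0.06), 8 than with vehicle (-0.02) and 9 than with GGOH (-0.03). Without rosuvastatin mouse 3, 9 of 16 were lower with the combination than with rosuvastatin (median -0.03), and 15 of 16 were lower with rosuvastatin than with vehicle (median -0.40). Hsp90b1, the ER member of the HSP90 family, was at -0.28 ± 0.19 for GGOH averaged over rosuvastatin. The 17 ERAD, translocation and transport genes were lower in 14 cases with the combination than with rosuvastatin (median -0.09), in 12 than with vehicle (-0.18) and in 8 than with GGOH, where the median was 0.09. Leaving out combination mice 2 and 3 and vehicle mouse 1, the counts lower were 9, 9 and 10 in the same order. Sec61a1, a translocon subunit, was at -0.30 ± 0.17 for GGOH averaged over rosuvastatin.

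Cytosolic heat shock genes were higher with GGOH than with vehicle in 6 of 6 cases (median 0.22), with 0 past the threshold. Of all genes 46.9% were higher. Without vehicle mouse 1 and combination mice 2 and 3, 5 of 6 were, and only vehicle mouse 1 is in that comparison. GGOH mouse 1 was highest for 3 of the 6 and among the top 3 for 5. No count without GGOH mouse 1 is given. Hspa1b, an inducible HSP70, stood at 9.42 ± 7.31 CPM with GGOH and 10.8 ± 4.85 CPM with the combination, against 6.43 ± 2.93 CPM with rosuvastatin and 6.04 ± 2.71 CPM with vehicle (SD, n = 5). With GGOH the median of Hspa1b was 6.54 CPM and the highest liver had 21.9 CPM. The log2 difference of Hspa1b for GGOH averaged over rosuvastatin was 0.69 ± 0.31. Hspa1a and Hspa1b are near-identical copies, so the division of reads between them is uncertain. Of 5 mitochondrial chaperones and proteases, 2 were higher and 3 lower with rosuvastatin than with vehicle (median -0.02), and all 5 were lower without rosuvastatin mouse 3.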

How the data were processed

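The authors deposited estimated counts per gene and TPM per gene for 20 liver libraries. The submitters' processing notes name kallisto 0.44.0, bcl2fastq 2.19, DESeq2 and the mouse build GRCm38, with no role given. Per the labels' protocols, RNA was purified on RNeasy columns, poly(A)-selected and sequenced in pairs on a NovaSeq instrument. An unnamed row with 0.00801 to 0.0157% of a library's counts was left out. Estimated counts were rounded and tested in edgeR 4.0.16 (R 4.3.3) with TMM factors, the default filter by group, 1 group-means quasi-likelihood model over 20 libraries and Benjamini-Hochberg adjustment over 12789 genes at 0.05. The SE comes from the F statistic. The log2 CPM used for variation and correlation carry a prior count of 2. Single genes were also compared by exact permutation of 252 assignments (smallest p 0.00794), and correlations by 100000 permutations in Python 3.11.15.

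The 10 members and the gene lists were chosen with earlier results of these data known, so no list was tested as a set. Besides members, the text names up to 2 genes a list with the smallest p in rosuvastatin against vehicle and in GGOH averaged over rosuvastatin, and the 5 genes nearest to Hspa5 and to Trib3. Genes named as high in single livers, Dnajb1, Dnajc3, Mars1, Sil1 and the genes named as lowest in r with Hspa5 were chosen after their values were seen. Counts of members and listed genes higher or lower with livers left out were also added after seeing the data. Positions are from GENCODE M21 (GRCm38). A search with blastn found 1 other gene with at least 100 aligned bases at 95% identity or more, Gm6568 for Dnajb9, which had 0 counts in every library. The test was checked on simulated data, with the same spread for every gene and changes only in well-counted genes. That check does not cover genes with counts as low as those of Asns and Chac1. Alternatives were RLE size factors, DESeq2 1.42.0, other filters, only the groups compared, a replicate block, limma-trend (limma 3.58.1) on log2(TPM + 1) and log2(TPM + 0.1), and left-out libraries. Counts of list genes without given libraries were added after seeing the data.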

Additional observations from a re-analysis of the deposited data

Results flagged for a closer look

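Rosuvastatin mouse 3 had 7.88 CPM of Asns, while the other 4 rosuvastatin livers had 0 to 0.272 CPM. On the log2 scale the gap to the nearest of them was 0.725 of the group's range. Among 40 groups of 5 livers examined (10 genes in 4 groups) this was the only 1 in which a liver stood so far apart, where 2 would be expected by chance at 1 in 20.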

How the results depend on the processing

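In every setting run, 0 of 10 members passed the threshold in each of the 8 comparisons. The count over all genes, 0 in 7 comparisons and 1 for GGOH averaged over rosuvastatin, did move. DESeq2 called 2 genes for rosuvastatin against vehicle, 1 for the combination against rosuvastatin, 5 for the combination against vehicle, 13 for rosuvastatin averaged over GGOH and 4 for GGOH averaged over rosuvastatin. Without a low-count filter edgeR called 1 gene for the combination against rosuvastatin and 1 against vehicle. Limma-trend on log2(TPM + 1) called 1 in each of these, and 1 against vehicle with no filter and on log2(TPM + 0.1). For GGOH averaged over rosuvastatin the count was 0 without vehicle mouse 1 and combination mice 2 and 3. Leaving out each library gave 0 to 1 gene for the combination against rosuvastatin and against vehicle, and 0 to 2 for GGOH averaged over rosuvastatin.

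The replicate numbers were not treated as pairs. Same-numbered livers correlated between -0.551 and 0.653, and 5 of 20 correlated best with their own number (1, 1, 3, 0 and 0 for numbers 1 to 5). Some would do so by chance. For number 3 the range was -0.00716 to 0.653, so this check cannot exclude shared handling of some numbers. With the replicate block the count for GGOH averaged over rosuvastatin was 0 instead of 1, and no other count of calls changed.

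Leaving out 1 library at a time, the log2 fold change of Asns ranged from -1.23 to 3.66 for rosuvastatin against vehicle, from -1.81 to 2.42 for the combination against rosuvastatin, from -3.82 to 1.07 for the interaction and from -0.698 to 1.75 for rosuvastatin averaged over GGOH. In each the sign turned without rosuvastatin mouse 3. Herpud1, at -0.30 for rosuvastatin against vehicle, was at 0.000246 by limma-trend on log2(TPM + 1), with or without a filter, and at 0.00171 on log2(TPM + 0.1). Without vehicle mouse 1 and combination mice 2 and 3 it was at 0.146 for the combination against vehicle and 0.0135 for rosuvastatin averaged over GGOH. The cause of these turns was not tested.

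The 8 correlated pairs became 35 on log2(TPM + 1) and on log2(TPM + 0.1), 4 without those 3 libraries and 5 to 11 with 1 library left out. The 4 members related to the mitochondrial share became 2 when CPM were taken over non-mitochondrial reads (chosen after seeing the data), 2 without those 3 libraries and 2 to 6 with 1 left out. The pairs among Hspa5, Sdf2l1 and Dnajb9 passed in all of these settings. Depth limits Asns and Chac1, with medians of 0.356 and 0.885 CPM.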
